A study of Mus musculus with 12 samples.

Results

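The 35 genes described here are the mouse counterparts of human X-linked genes in which mutations cause intellectual disability, a group named by its members and not by any value in these data. All 35 were found by their symbols in each of the 12 count files, and 33 of them reached at least 1 CPM (counts scaled to the size of the library) in at least 6 libraries, out of 13191 genes of all chromosomes that did so and 464 X-linked ones apart from *Xist*. The libraries were RNA-seq of the J1 line of male (XY) mouse ES cells, in which *Xist* is transcribed from its own locus under a doxycycline (DOX)-inducible TetO promoter (XistTetOP). In XistTetOP_FL the transcript is full length (*Xist* FL), in XistTetOP_delA it lacks the A repeat (*Xist* ΔA), and in XistTetOP_delBC B and C are the repeats removed (*Xist* ΔB+C). *Xist* ΔB+C was made by deletion in the *Xist* FL line, and the labels do not name the clone sequenced. *Xist* ΔA is an earlier, separately derived line, so that a difference between lines includes any difference between clones. Every line was differentiated by LIF withdrawal for 2 days, either with 1.5 µg/ml DOX or without it (noDOX), and 2 replicates were sequenced in each of the 6 groups. The question asked of these genes was how far they were silenced when each form of *Xist* was switched on, by function and by their level without DOX. The lines are called FL, ΔA and ΔB+C from here on.

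*Xist* is the long non-coding RNA that coats the chromosome it is made from and starts X-chromosome inactivation, the process by which female mammals equalise X-linked gene dosage with males. Its A repeat is known as the part needed for gene silencing through the protein SPEN, and its B and C repeats are known for the recruitment of Polycomb complexes. The X chromosome is rich in genes needed for brain development, and the genes of this group act in unlike processes: at synapses, in the ubiquitin system, in membrane transport and trafficking, in transcription and chromosome structure, and in sugar, lipid and secretory metabolism. In males, who have a single copy, loss of one of them has no second allele to compensate, and in females the allele that is expressed depends on which X was inactivated. Male ES cells offer a setting where silencing acts on the single copy of each gene.

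Library totals lay between 31337490 and 41240470 counts. Replicate 2 of ΔB+C DOX started from 100 ng of RNA by a low input protocol, the others from 1000 ng. *Xist* itself was at 2.48 to 8.27 CPM in the 6 libraries without DOX and, with DOX, at 869 and 908 CPM in FL, 1791 and 1159 CPM in ΔB+C and 722 and 570.1 CPM in ΔA, so no library went against its label, and *Xist* levels differed between lines. All 8 pluripotency markers listed were above 1 CPM in every library. The summed level of these 8 went from 2975 and 3406 CPM to 3716 and 4355 CPM with DOX in FL and from 3116 and 3968 to 3188 and 4777 CPM in ΔB+C, against 3788 and 4790 to 3988 and 5096 CPM in ΔA. The summed level of the 8 neuronal markers was 181 to 220.2 CPM without DOX over the 3 lines, 251 and 260.4 CPM with DOX in FL, 229.7 and 291 CPM in ΔB+C and 172 and 231 CPM in ΔA, with 6 to 8 of the 8 above 1 CPM in a library. Such sums follow the abundant genes. With DOX in FL and ΔB+C, *Tubb3*, *Neurod1* and *Stmn2* were higher, *Rbfox3*, *Snap25*, *Syt1* and *Elavl3* were lower, and *Map2* was lower in FL only. Of these only *Neurod1* in ΔB+C passed a test (edgeR, adjusted p = 0.035). Of the pluripotency markers, *Nanog* and *Pou5f1* had negative log2(fold change) of DOX over noDOX in both lines and the others positive. None of the 8 passed, and some values were near 0. *Pou5f1* in FL was at -0.006 ± 0.14 (SE), *Nanog* in ΔB+C at -0.11 ± 0.23 and *Dppa5a* in ΔB+C at 0.019 ± 0.38. The summed level of 4 mesendoderm markers went from 241 and 175 to 133 and 36.4 CPM in FL, from 202 and 108 to 132 and 38.8 CPM in ΔB+C and from 47.5 and 37.4 to 62.2 and 40.1 CPM in ΔA, and that of 5 epiblast-like markers from 1562 and 1882 to 1414 and 1777 CPM, from 1537 and 1755 to 1145 and 1317 CPM and from 2226 and 1941 to 2159.5 and 1922 CPM in the same order. In ΔB+C both DOX libraries were thus below both noDOX libraries in epiblast-like markers, and its 5 primitive endoderm markers went from 38.0 and 26.1 to 52.2 and 39.2 CPM, against 20.3 to 31.3 CPM in the other lines. Sums over fibroblast and neural progenitor markers were 11.7 to 55.8 and 67.4 to 156 CPM. The part of these shifts in the values below was not tested. A bulk library cannot tell fewer cells with a coated X chromosome from less silencing in each cell, and the share of coated cells was not analysed here.

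With DOX the genes of this group were lower in FL and ΔB+C, and in ΔA none passed the test. In FL all 33 genes had a negative log2(fold change) of DOX over noDOX, from -1.25 to -0.19 with a median of -0.78. In ΔB+C all 33 were negative as well, from -1.34 to -0.18 with a median of -0.68, while in ΔA 27 of 33 were negative and the median was -0.15. The median gene kept 58.2% of its noDOX level in FL, 62.4% in ΔB+C and 90.2% in ΔA. For comparison, the medians over the 431 other X-linked genes tested were -0.86, -0.78 and -0.14 in the same order, and the median over 12721 autosomal genes was within 0.01 of 0 in each line. The counts of all 35 genes, summed per library, went from 3586 and 3225 CPM to 2361 and 1967 CPM in FL, which left 63.5% of the noDOX mean. In ΔB+C the sum went from 3855 and 3430.1 CPM to 2612 and 1954 CPM and in ΔA from 3877 and 3873 CPM to 3593 and 3461 CPM, leaving 62.7% and 91.0%. These sums are carried by a few genes, since *Flna*, *Huwe1* and *Cul4b* are the most abundant ones.

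**Figure D1:**
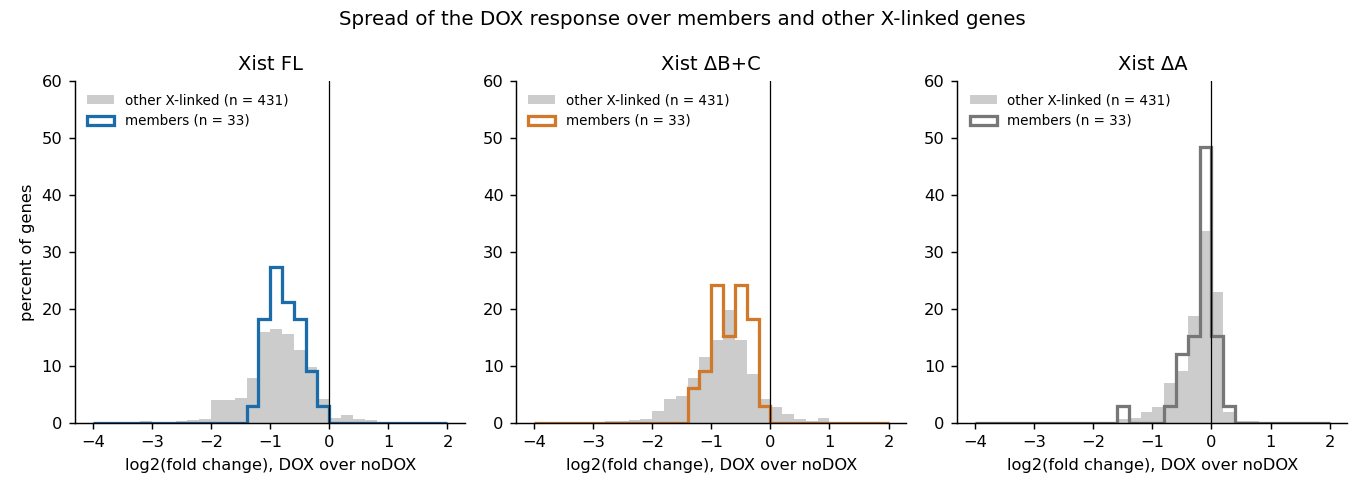
Percent of genes (y axis) in bins of 0.2 of log2(fold change), DOX over noDOX (x axis), for the 33 intellectual disability genes (coloured outline, "members") and the 431 other X-linked genes tested (grey), in each line. The outline lies wholly below 0 in FL and ΔB+C, with medians of -0.78 and -0.68, and straddles 0 in ΔA, where the median is -0.15.

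In FL and ΔB+C the values of the group spread less than those of the rest of the chromosome, a difference given here as a description. The standard deviation of log2(fold change) over the 33 genes was 0.28 in FL, 0.32 in ΔB+C and 0.31 in ΔA, against 0.53, 0.54 and 0.33 over the other X-linked genes, whose values reached from -3.16 to 0.78 in FL. The median standard error of a single gene was 0.22 in both sets and in each line. Over 72 other X-linked intellectual disability genes, described further below, the standard deviation was 0.41 in FL, 0.42 in ΔB+C and 0.27 in ΔA. The narrower spread in FL and ΔB+C thus belongs to the 33 genes listed and not to intellectual disability genes in general. Both DOX libraries lay below both noDOX libraries for 30 of 33 genes in FL, where 25.7% of all genes tested and 88.1% of X-linked ones did so. The same held for 28 of 33 genes in ΔB+C (23.3% and 82.1%) and for 15 of 33 in ΔA (12.5% and 35.6%). Within replicate pairs, DOX was below noDOX in both pairs for 32 of 33 genes in FL, 33 in ΔB+C and 24 in ΔA, and for 407, 396 and 273 of the 431 other X-linked genes. Only *Slc6a8*, *Bcor* and *Porcn* overlapped in FL, and *Ap1s2*, *Wdr45*, *Bcor*, *Taf1* and *Porcn* in ΔB+C.

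Past an adjusted p of 0.05 (edgeR quasi-likelihood test, Benjamini-Hochberg over all 13191 genes), 7 of 33 genes fell in FL: *Dlg3*, *Las1l*, *Acsl4*, *Smc1a*, *Atp7a*, *Huwe1* and *Rps6ka3*. That compares with 1.09% of all genes tested and 27.2% of the X-linked ones called lower. In ΔB+C 10 of 33 fell (2.13% of all genes, 34.3% of X-linked ones), namely *Dlg3*, *Las1l*, *Huwe1*, *Smc1a*, *Acsl4*, *Atp7a*, *Iqsec2*, *Ssr4*, *Nlgn3* and *Ube2a*. In ΔA edgeR called 0 of 33 (0% of all genes and 0% of X-linked ones). At an unadjusted p below 0.05, 4 of the 33 were lower, as were 49 of the 431 other X-linked genes. DESeq2 and limma-voom called 0 of the 33 as well. The shares called in the group are near those of X-linked genes in general. With the replicate number as a block, which the correlated replicates allow, 29 genes fell in FL, 26 in ΔB+C and 0 in ΔA, where the block called 80.6%, 75.6% and 0.431% of X-linked genes and 8.13%, 12% and 0.0152% of all genes lower. The genes not called with the block were *Slc6a8*, *Bcor*, *Taf1* and *Porcn* in FL, and the same 4 with *Slc9a7*, *Ap1s2* and *Wdr45* in ΔB+C. Without the block the counts changed when 1 library was left out, also a library of another line, since all groups share the dispersion. In FL they fell without any 1 FL or ΔA library or a ΔB+C noDOX library, and rose without either ΔB+C DOX library. In ΔB+C they fell without any 1 library, most without a noDOX library or DOX replicate 2 (the low input library) of that line. With 1 library left out, the median log2(fold change) of the 33 genes was -0.895 to -0.66 in FL and -0.86 to -0.50 in ΔB+C.

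**Figure D2:**
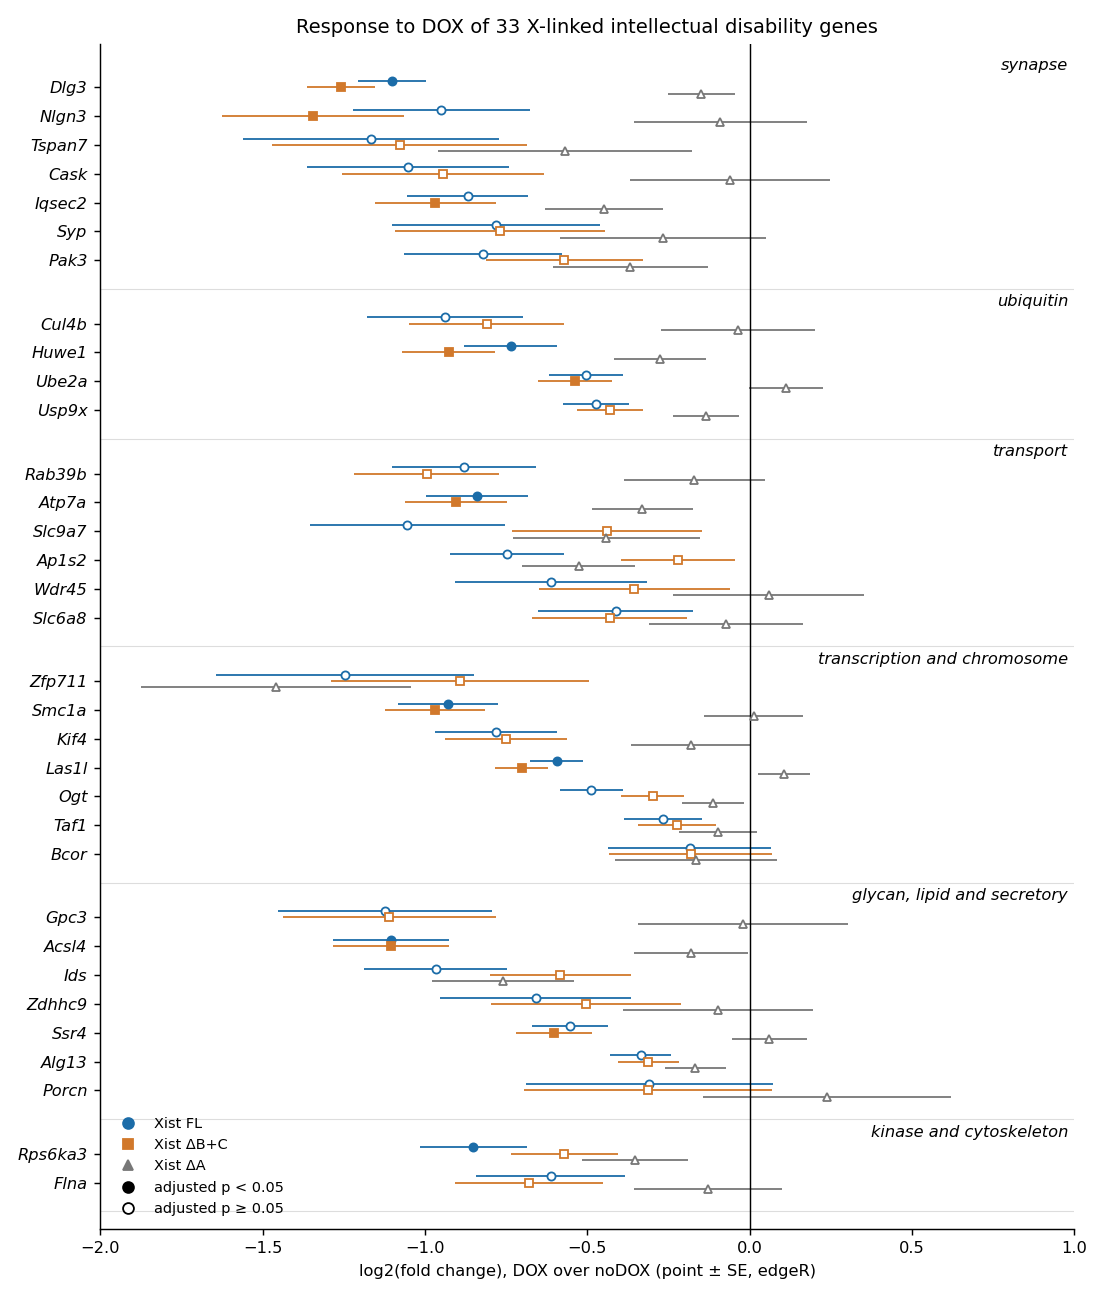
log2(fold change), DOX over noDOX, of the 33 genes (points) with its standard error (bars) in FL (circles), ΔB+C (squares) and ΔA (triangles), grouped by function and ordered within a function by the mean of the first 2 lines. Filled symbols mark an adjusted p below 0.05 (edgeR), 7 of them in FL, 10 in ΔB+C and 0 in ΔA.

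The bases just upstream of the transcription start are shown for 4 genes, the pair with the lowest mean log2(fold change) of FL and ΔB+C (*Tspan7* and *Gpc3*) and the pair with the highest (*Taf1* and *Alg13*), among genes with a single promoter in the RefSeq table, so that both ends of the response can be compared. Each is the 250 bases before the RefSeq start, 5′ to 3′ on the strand of the gene, with every CG dinucleotide in capitals, in GRCm38.p6. *Tspan7* lies at chrX:10484866-10485115 on the plus strand with 19 CG, *Gpc3* at chrX:52613975-52614224 on the minus strand with 25 CG, *Taf1* at chrX:101532485-101532734 on the plus strand with 16 CG, and *Alg13* at chrX:144317716-144317965 on the plus strand with 15 CG.
Tspan7: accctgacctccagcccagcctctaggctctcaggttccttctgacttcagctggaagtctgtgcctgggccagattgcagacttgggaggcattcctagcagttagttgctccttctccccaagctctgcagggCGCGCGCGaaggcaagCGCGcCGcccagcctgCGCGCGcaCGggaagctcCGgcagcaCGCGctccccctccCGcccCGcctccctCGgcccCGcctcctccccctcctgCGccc
Gpc3: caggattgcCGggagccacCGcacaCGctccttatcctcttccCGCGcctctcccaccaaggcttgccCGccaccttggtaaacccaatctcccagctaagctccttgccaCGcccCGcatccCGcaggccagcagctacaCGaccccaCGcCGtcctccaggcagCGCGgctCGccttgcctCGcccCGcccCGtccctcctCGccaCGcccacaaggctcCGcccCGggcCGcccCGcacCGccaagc
Taf1: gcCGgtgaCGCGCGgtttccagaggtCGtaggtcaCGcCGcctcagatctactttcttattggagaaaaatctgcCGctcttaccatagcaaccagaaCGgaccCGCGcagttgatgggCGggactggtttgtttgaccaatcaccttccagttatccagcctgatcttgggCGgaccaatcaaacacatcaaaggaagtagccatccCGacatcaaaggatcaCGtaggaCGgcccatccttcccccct
Alg13: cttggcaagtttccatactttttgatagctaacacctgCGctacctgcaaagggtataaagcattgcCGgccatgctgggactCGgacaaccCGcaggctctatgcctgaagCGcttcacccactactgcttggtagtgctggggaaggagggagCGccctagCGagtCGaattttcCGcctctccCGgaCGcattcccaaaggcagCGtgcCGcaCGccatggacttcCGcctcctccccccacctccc

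All 4 held 15 or more CG, and promoters of broadly expressed genes are often rich in CG. RefSeq windows of 300 bases (250 before and 50 after the start) were matched for 28 of the 35 genes and 26 of the 33 tested, and CG was counted on the strand shown, where it reads the same on the other strand. For a gene with several windows the one with the most CG was taken. Each of the 26 genes had a CG in that window, as did 99.2% of 367 other X-linked genes. The median was 20.5 CG a window over the 26 genes, from 3 to 41, against 17 over the other X-linked genes, from 0 to 57. Across the 26 genes the CG number and log2(fold change) had a Pearson r of -0.30 in FL, -0.31 in ΔB+C and -0.34 in ΔA. Over the other X-linked genes the same r was 0.03, 0.02 and -0.09. These are descriptions across genes, which share libraries and are not independent replicates, and r over 26 genes is weak.

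The synapse genes had the lowest median of any function in each line. Of the 9 in the list, 7 were tested, and their log2(fold change) lay between -1.17 and -0.78 in FL and between -1.34 and -0.57 in ΔB+C, with medians of -0.95 and -0.97. In ΔA they lay between -0.57 and -0.06 with a median of -0.27, and ΔB+C minus ΔA had a median of -0.52, the same as over all 33 genes, against -0.65 over the ubiquitin genes. Calls numbered 1 of 7 in FL and 3 of 7 in ΔB+C, and 7 of 7 in both with the block. Of X-linked genes 27.2% and 34.3% were called lower, and 80.6% and 75.6% with the block. Of all genes the shares were 1.09% and 2.13%, and 8.13% and 12% with the block. With 7 genes these counts do not set synapse genes apart from other X-linked ones. *Dlg3* (chrX:100767722-100818410, mm10), a scaffold of excitatory synapses also called SAP102, was the clearest. Its levels, with replicate 1 before replicate 2 here and below, were 34.3 and 32.6 CPM without DOX and 16 and 15.2 CPM with DOX in FL, 35.1 and 32.7 CPM without DOX and 15.1 and 13.2 CPM with DOX in ΔB+C, and 39.6 and 37.6 CPM without DOX and 35.7 and 33.9 CPM with DOX in ΔA. In FL and ΔB+C the 4 DOX libraries lay far below the 4 noDOX libraries, and in ΔA the DOX libraries were lower by a small margin.

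That gave *Dlg3* a log2(fold change) of -1.10 ± 0.10 (SE, n = 2 libraries a group) in FL with an edgeR adjusted p of 0.003, -1.26 ± 0.11 in ΔB+C with an adjusted p of 0.0012, and -0.15 ± 0.10 in ΔA. *Iqsec2*, an exchange factor for ARF6 at the postsynapse, was at 5.82 and 5.36 CPM without DOX and 3.0 and 3.12 CPM with DOX in FL, 5.9 and 5.76 CPM without DOX and 2.84 and 3.13 CPM with DOX in ΔB+C, and 5.52 and 7.56 CPM without DOX and 4.85 and 4.72 CPM with DOX in ΔA. Its log2(fold change) of -0.97 ± 0.19 in ΔB+C passed the test (adjusted p = 0.03), and that of -0.87 ± 0.18 in FL did not (adjusted p = 0.068). *Nlgn3*, a neuroligin that bridges the synaptic cleft, had the lowest value in ΔB+C at -1.34 ± 0.28 (adjusted p = 0.039), against -0.95 ± 0.27 in FL and -0.090 ± 0.27 in ΔA. That value rested on few counts, at 4.26 and 3.03 CPM without DOX and 1.18 and 1.71 CPM with DOX in ΔB+C. The replicate pairs of ΔB+C gave *Nlgn3* -1.85 and -0.83, and leaving out 1 library gave -1.63 to -1.07. *Pak3*, a p21-activated kinase of dendritic spines, had the highest mean log2(fold change) over FL and ΔB+C among the synapse genes, with levels of 6.67 and 6.85 CPM without DOX and 3.93 and 3.72 CPM with DOX in FL, 8.53 and 5.7 CPM without DOX and 5.52 and 4.05 CPM with DOX in ΔB+C, and 9.17 and 7.06 CPM without DOX and 6.8 and 5.78 CPM with DOX in ΔA. Its DOX libraries lay below its noDOX libraries in each line, and it had log2(fold change) -0.82 ± 0.24 in FL, -0.57 ± 0.24 in ΔB+C and -0.37 ± 0.24 in ΔA (± SE).

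The other synapse genes tested were *Cask*, a scaffold of the same MAGUK family as *Dlg3*, *Tspan7*, a tetraspanin, and *Syp*, which encodes the vesicle protein synaptophysin. *Cask* had log2(fold change) -1.05 ± 0.31 in FL, -0.94 ± 0.31 in ΔB+C and -0.060 ± 0.31 in ΔA (± SE). For *Tspan7*, the gene with the first promoter above, the values were -1.17 ± 0.39, -1.08 ± 0.39 and -0.57 ± 0.39 in the same order, and for *Syp* -0.78 ± 0.32, -0.77 ± 0.32 and -0.27 ± 0.32. None of these 3 passed in either line without the block, and all did with it. *Arhgef6*, a Rac and Cdc42 exchange factor, did not reach the level for testing, at 1.12 and 0.786 CPM in the noDOX libraries of FL and 0.186 to 0.944 CPM in the other 10. *Il1rapl1*, a synaptic adhesion receptor, had 0 counts in all 12 libraries, which allows up to 3 counts or 0.0727 to 0.0957 CPM a library.

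The ubiquitin genes had the lowest median standard error of any function, at 0.13 in each line. All 4 were lower in both DOX libraries than in either noDOX library in FL and ΔB+C, with median log2(fold change) of -0.62 and -0.67 and, in ΔA, -0.09. Calls were 1 of 4 in FL and 2 of 4 in ΔB+C, and 4 of 4 in each with the block. The shares of X-linked genes called lower were 27.2% and 34.3%, and 80.6% and 75.6% with the block. *Huwe1*, a HECT-type ubiquitin ligase whose exons include the small RNA gene *Mir3113* on the same strand, was at 612 and 552 CPM without DOX and 349 and 350.2 CPM with DOX in FL, 706 and 587 CPM without DOX and 392 and 289 CPM with DOX in ΔB+C, and 707 and 735 CPM without DOX and 608 and 582 CPM with DOX in ΔA. It fell by 0.74 ± 0.14 on the log2 scale in FL (adjusted p = 0.049) and by 0.93 ± 0.14 in ΔB+C (adjusted p = 0.014), and in ΔA both DOX libraries were also below both noDOX libraries, at -0.28 ± 0.14 without passing the test. *Cul4b*, the scaffold of a cullin-RING ligase, had the lowest mean log2(fold change) over FL and ΔB+C of the 4, with levels of 405 and 347 CPM without DOX and 226 and 166 CPM with DOX in FL, 444 and 363 CPM without DOX and 287 and 173 CPM with DOX in ΔB+C, and 391 and 343 CPM without DOX and 386 and 330.1 CPM with DOX in ΔA. Replicate 2 was lower than replicate 1 in every group. *Cul4b* had log2(fold change) -0.94 ± 0.24 in FL, -0.81 ± 0.24 in ΔB+C and -0.035 ± 0.24 in ΔA (± SE) and no call (adjusted p = 0.12 and 0.11 in the first 2), but an adjusted p of 0.00059 and 0.00096 with the block.

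*Usp9x*, a deubiquitinating enzyme, had the highest mean log2(fold change) over FL and ΔB+C of the 4, with levels of 279.7 and 284 CPM without DOX and 209.7 and 197 CPM with DOX in FL, 284 and 282 CPM without DOX and 222 and 198 CPM with DOX in ΔB+C, and 325 and 384 CPM without DOX and 307 and 337 CPM with DOX in ΔA. It kept 72.1% of its noDOX level in FL and 74.2% in ΔB+C, without passing the test (adjusted p = 0.072 and 0.061), and 91.1% in ΔA. Its Y-linked copy *Usp9y*, which could share reads with it, was at 0.27 CPM or less in every library. *Ube2a*, a ubiquitin-conjugating enzyme, had log2(fold change) -0.50 ± 0.11 in FL, -0.54 ± 0.11 in ΔB+C and 0.11 ± 0.11 in ΔA (± SE), and passed in ΔB+C (adjusted p = 0.043).

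**Figure D3:**
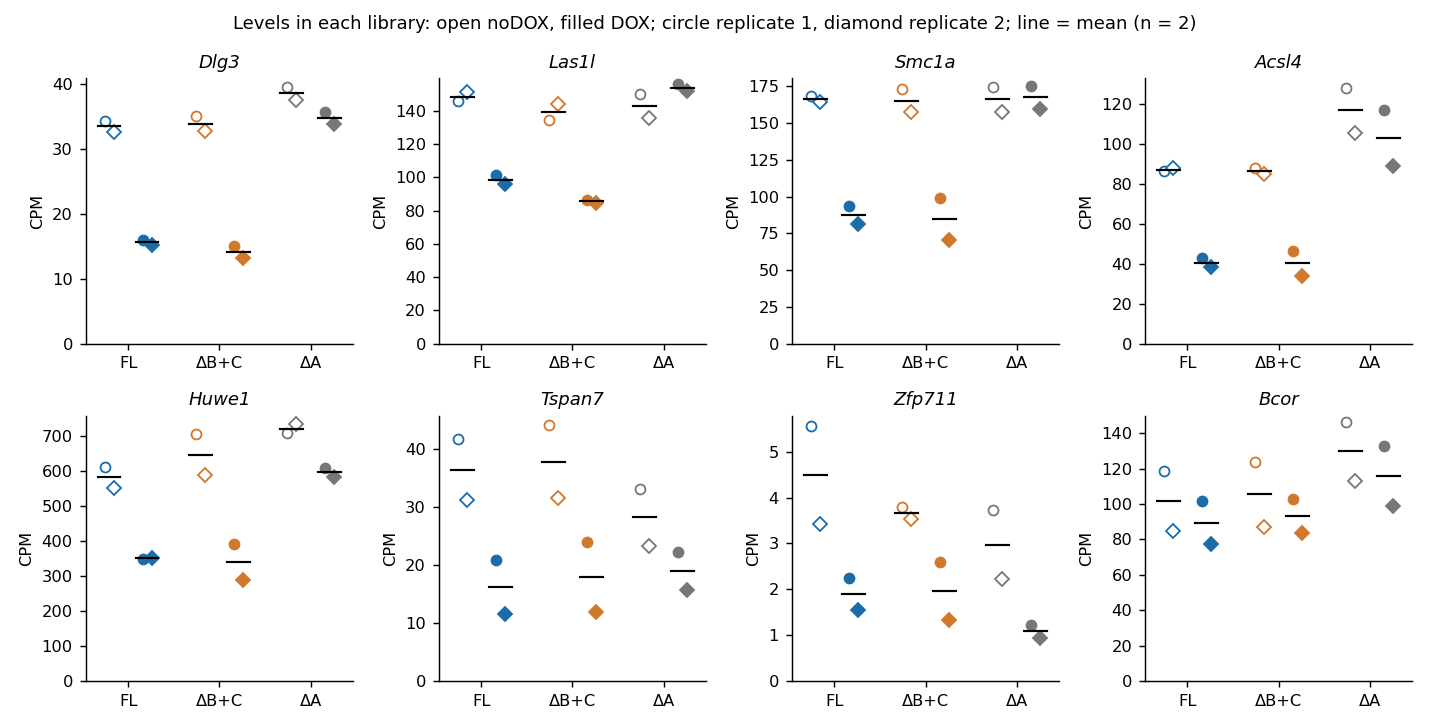
CPM (y axis, from 0) of 8 genes in each library, for FL, ΔB+C and ΔA (x axis), noDOX as open and DOX as filled symbols, replicate 1 as circles, replicate 2 as diamonds and the mean of 2 as a line. *Dlg3*, *Las1l*, *Smc1a*, *Acsl4* and *Huwe1* fell in FL and ΔB+C with DOX and noDOX apart, *Tspan7* shows the same with a wide gap between replicates, *Zfp711* is lower with DOX in all lines, and *Bcor* overlaps in all lines.

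Over the 6 genes of transport and trafficking the median log2(fold change) was -0.79 in FL, -0.44 in ΔB+C and -0.25 in ΔA. Gene by gene, ΔB+C minus FL was negative for 3 and positive for 3, with a median of 0.12 and a median standard error of 0.33. There was 1 call in each of the first 2 lines, for *Atp7a*, a copper-transporting ATPase, whose levels were 15.7 and 15.8 CPM without DOX and 8.97 and 8.6 CPM with DOX in FL, 18.3 and 15.3 CPM without DOX and 9.97 and 7.96 CPM with DOX in ΔB+C, and 21 and 18.3 CPM without DOX and 16.7 and 14.5 CPM with DOX in ΔA. With log2(fold change) -0.84 ± 0.16 in FL, -0.90 ± 0.16 in ΔB+C and -0.33 ± 0.15 in ΔA (± SE), its adjusted p was 0.043 and 0.022 in the first 2. *Rab39b*, a small GTPase of vesicle traffic, had the lowest mean log2(fold change) over FL and ΔB+C of the 6, with levels of 6.09 and 5.75 CPM without DOX and 3.55 and 2.88 CPM with DOX in FL, 5.51 and 5.29 CPM without DOX and 2.94 and 2.47 CPM with DOX in ΔB+C, and 6.54 and 6.23 CPM without DOX and 6.82 and 4.5 CPM with DOX in ΔA. No DOX library reached a noDOX library in FL or ΔB+C, but the adjusted p was 0.11 and 0.051, and 0.0073 and 0.0029 with the block. *Slc6a8*, the creatine transporter, had the highest mean log2(fold change) over FL and ΔB+C of the 6, with levels of 46.2 and 34.5 CPM without DOX and 36.5 and 24.1 CPM with DOX in FL, 48.9 and 37.2 CPM without DOX and 32.8 and 31.1 CPM with DOX in ΔB+C, and 58.3 and 71.2 CPM without DOX and 53.4 and 69.6 CPM with DOX in ΔA. Its groups overlapped in FL, its adjusted p was 0.51 and 0.38, and it was not called with the block either.

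*Ap1s2*, a subunit of the clathrin adaptor AP-1, was at 13.9 and 12.2 CPM without DOX and 7.69 and 7.86 CPM with DOX in FL, 12.1 and 10.2 CPM without DOX and 10.9 and 8.15 CPM with DOX in ΔB+C, and 14.5 and 13.4 CPM without DOX and 9.02 and 10.3 CPM with DOX in ΔA. Its DOX libraries were below its noDOX libraries in FL and in ΔA and overlapped them in ΔB+C, giving log2(fold change) -0.75 ± 0.18 in FL, -0.22 ± 0.17 in ΔB+C and -0.53 ± 0.17 in ΔA (± SE), none of them called. *Slc9a7*, a sodium and potassium proton exchanger of the Golgi, showed a similar order at -1.05 ± 0.30, -0.44 ± 0.29 and -0.44 ± 0.29, from the lowest counts of the 33 (1.98 CPM on average without DOX). *Wdr45*, an autophagy protein, had -0.61 ± 0.30, -0.36 ± 0.29 and 0.058 ± 0.29. The difference between ΔB+C and FL did not pass the test for any of the 6.

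The genes of transcription and chromosome structure had the widest range of any function in FL and ΔA. Over the 7 genes log2(fold change) lay between -1.25 and -0.19 in FL, between -0.97 and -0.18 in ΔB+C and between -1.46 and 0.11 in ΔA, and *Smc1a* and *Las1l* were called in both of the first 2 lines. *Smc1a* (chrX:152016428-152062694), a core subunit of the cohesin ring, was at 169 and 164 CPM without DOX and 93.6 and 81.2 CPM with DOX in FL, 173 and 157 CPM without DOX and 98.8 and 70.2 CPM with DOX in ΔB+C, and 175 and 157 CPM without DOX and 175 and 159.9 CPM with DOX in ΔA. DOX left 52.5% and 51.1% of its level in FL and ΔB+C (adjusted p = 0.027 and 0.016), and 100.9% in ΔA. *Las1l* (chrX:95935335-95956962), which takes part in ribosomal RNA processing, was at 146 and 151 CPM without DOX and 101 and 95.7 CPM with DOX in FL, 135 and 144 CPM without DOX and 86.6 and 84.6 CPM with DOX in ΔB+C, and 150.2 and 136 CPM without DOX and 156 and 152 CPM with DOX in ΔA. Its replicates differed little, and it fell by 0.59 ± 0.08 in FL (adjusted p = 0.014) and by 0.70 ± 0.08 in ΔB+C (adjusted p = 0.0045) on the log2 scale. It was the only gene of the 33 with both DOX libraries above both noDOX libraries in ΔA, at 0.11 ± 0.08, which did not pass the test.

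*Zfp711*, a zinc finger protein, had the lowest value of the group in both FL and ΔA. Its levels were low, at 5.55 and 3.42 CPM without DOX and 2.24 and 1.55 CPM with DOX in FL, 3.79 and 3.53 CPM without DOX and 2.59 and 1.33 CPM with DOX in ΔB+C, and 3.72 and 2.22 CPM without DOX and 1.22 and 0.932 CPM with DOX in ΔA. All 3 lines had their DOX libraries below their noDOX libraries, with log2(fold change) -1.25 ± 0.40 in FL, -0.89 ± 0.40 in ΔB+C and -1.46 ± 0.42 in ΔA (± SE), and no call in any line (adjusted p = 0.2 and 0.27 in the first 2, and an unadjusted p of 0.0065 in ΔA). At the other end stood *Bcor*, a corepressor found in a variant Polycomb complex, at 119 and 84.5 CPM without DOX and 101 and 77.4 CPM with DOX in FL, 124 and 87 CPM without DOX and 103 and 83.4 CPM with DOX in ΔB+C, and 146 and 113 CPM without DOX and 133 and 98.8 CPM with DOX in ΔA. Replicate 2 was lower than replicate 1 in every group, the DOX and noDOX libraries overlapped in every line although DOX was lower in all 6 replicate pairs, and log2(fold change) was -0.19 ± 0.25, -0.18 ± 0.25 and -0.17 ± 0.25 in FL, ΔB+C and ΔA.

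*Taf1*, the largest subunit of the general transcription factor TFIID and the third promoter shown above, was at 85.7 and 82.3 CPM without DOX and 69 and 70.6 CPM with DOX in FL, 89.9 and 76 CPM without DOX and 79.3 and 62.7 CPM with DOX in ΔB+C, and 83 and 80.8 CPM without DOX and 77.3 and 75.7 CPM with DOX in ΔA. It kept 83.1%, 85.6% and 93.4% in the 3 lines in that order and was not called (adjusted p = 0.38 and 0.36 in the first 2). *Kif4*, a chromosome-bound kinesin, had log2(fold change) -0.78 ± 0.19 in FL, -0.75 ± 0.19 in ΔB+C and -0.18 ± 0.19 in ΔA (± SE). Its exons overlap those of *Pdzd11* on the opposite strand by 832 bases, and since no strand setting was given for the counting, reads of the pair may not be told apart there. *Ogt*, the O-GlcNAc transferase, had -0.49 ± 0.10, -0.30 ± 0.10 and -0.11 ± 0.10, with an adjusted p of 0.051 in FL.

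Among the 7 genes of glycan, lipid and secretory metabolism, *Acsl4* was called in both lines and *Ssr4* in ΔB+C, and the medians were -0.66, -0.58 and -0.10. *Gpc3* (chrX:52272426-52613950), a heparan sulfate proteoglycan of the cell surface and the second promoter shown, had the lowest mean log2(fold change) over FL and ΔB+C of the 7, with levels of 52.8 and 42.2 CPM without DOX and 28.5 and 15.2 CPM with DOX in FL, 55.6 and 46.6 CPM without DOX and 29.6 and 17.7 CPM with DOX in ΔB+C, and 38.9 and 29.3 CPM without DOX and 37.7 and 29.6 CPM with DOX in ΔA. Its level with DOX was much lower in replicate 2 than in replicate 1. The log2(fold change) values of -1.12 ± 0.33 and -1.11 ± 0.33 did not pass (adjusted p = 0.17 and 0.11) but did with the block (adjusted p = 0.00067 and 0.00059), and in ΔA the value was -0.020 ± 0.32. *Acsl4*, which activates arachidonic acid, was at 86.4 and 87.7 CPM without DOX and 42.7 and 38.3 CPM with DOX in FL, 87.7 and 84.7 CPM without DOX and 46.5 and 33.6 CPM with DOX in ΔB+C, and 128 and 105 CPM without DOX and 117 and 88.9 CPM with DOX in ΔA. DOX left 46.6% of it in FL (adjusted p = 0.025), 46.5% in ΔB+C (adjusted p = 0.017) and 88.3% in ΔA, where the groups overlapped.

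*Ssr4*, a subunit of the translocon-associated complex of the endoplasmic reticulum, was at 54.5 and 60.8 CPM without DOX and 40.6 and 37.9 CPM with DOX in FL, 53.9 and 59.4 CPM without DOX and 39.2 and 35.3 CPM with DOX in ΔB+C, and 55.8 and 51.8 CPM without DOX and 61 and 51.2 CPM with DOX in ΔA. The DOX and noDOX libraries of FL and ΔB+C were apart, with adjusted p values of 0.066 and 0.031. *Ids*, the lysosomal iduronate sulfatase, was at 17.3 and 12.9 CPM without DOX and 8.45 and 7.0 CPM with DOX in FL, 16.8 and 13.1 CPM without DOX and 11 and 8.98 CPM with DOX in ΔB+C, and 12.9 and 15.8 CPM without DOX and 7.6 and 9.38 CPM with DOX in ΔA. It was below its noDOX libraries in all 3 lines, with log2(fold change) -0.97 ± 0.22 in FL, -0.58 ± 0.22 in ΔB+C and -0.76 ± 0.22 in ΔA (± SE), none of them called. *Porcn*, which attaches palmitoleate to Wnt proteins, overlapped in all 3 lines, at 7.79 and 12.6 CPM without DOX and 8.15 and 8.28 CPM with DOX in FL, 7.23 and 10.9 CPM without DOX and 6.93 and 7.68 CPM with DOX in ΔB+C, and 5.32 and 10.6 CPM without DOX and 7.05 and 11.8 CPM with DOX in ΔA. Its replicate 2 libraries were higher in every group, and its log2(fold change) was -0.31 ± 0.38, -0.31 ± 0.38 and 0.24 ± 0.38. *Alg13*, a glycosyltransferase subunit and the last promoter shown, had -0.34 ± 0.09, -0.31 ± 0.09 and -0.17 ± 0.09, and *Zdhhc9*, a palmitoyltransferase, had -0.66 ± 0.29, -0.50 ± 0.29 and -0.098 ± 0.29.

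The remaining pair were *Rps6ka3*, the kinase RSK2, and *Flna*, the actin crosslinker filamin A. *Rps6ka3* was at 29.3 and 26.2 CPM without DOX and 15.8 and 14.9 CPM with DOX in FL, 26.5 and 24.6 CPM without DOX and 20.3 and 14.1 CPM with DOX in ΔB+C, and 25.8 and 28.9 CPM without DOX and 20.7 and 22.2 CPM with DOX in ΔA, with its DOX libraries below its noDOX libraries in each line. It passed in FL (log2(fold change) -0.85 ± 0.17, adjusted p = 0.049) and not in ΔB+C (-0.57 ± 0.16, adjusted p = 0.1). *Flna*, the most abundant gene of the group in CPM, was at 856 and 684 CPM without DOX and 603 and 404 CPM with DOX in FL, 964 and 859 CPM without DOX and 692 and 446 CPM with DOX in ΔB+C, and 946 and 988 CPM without DOX and 885 and 885 CPM with DOX in ΔA. It had log2(fold change) -0.61 ± 0.23 in FL, -0.68 ± 0.23 in ΔB+C and -0.13 ± 0.23 in ΔA (± SE), without a call (adjusted p = 0.28 and 0.15 in the first 2).

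The difference in response between lines was tested for each gene. ΔB+C minus ΔA was negative for 29 of 33 genes with a median of -0.52, and 2 of 33 passed, *Dlg3* at -1.11 ± 0.15 (adjusted p = 0.031) and *Las1l* at -0.81 ± 0.12 (adjusted p = 0.041). This difference was called lower for 0.159% of all genes and 3.66% of X-linked ones. Leaving out any 1 of the 12 libraries ended both calls, with log2 differences between -1.21 and -1.02 for *Dlg3* and between -0.88 and -0.74 for *Las1l*, and scaling by library totals ended them too. With the block 12 genes passed, all lower (41.8% of X-linked genes and 5.09% of all genes lower), which added *Acsl4*, *Atp7a*, *Cul4b*, *Gpc3*, *Huwe1*, *Kif4*, *Nlgn3*, *Smc1a*, *Ssr4* and *Ube2a*. FL minus ΔA was negative for 32 of 33 genes with a median of -0.55. Of these, edgeR called 0 (0% of all genes lower). At an unadjusted p below 0.05 there were 16 of the 33 genes, beside 200 of the 431 other X-linked genes. DESeq2 called 4 and the block 9 (36.9% of X-linked genes and 1.99% of all genes lower). The 4 genes for which at least 1 of these differences was positive were *Zfp711*, *Ids*, *Ap1s2* and *Slc9a7*, and *Zfp711* and *Ids* were the pair with the lowest values in ΔA.

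ΔB+C and FL did not differ past the threshold for any of the 33 genes, by edgeR (0 also at an unadjusted p below 0.05), by DESeq2 or with the block. The differences had a median of 0.01 and lay between -0.39 for *Nlgn3* and 0.61 for *Slc9a7*, and their median standard error was 0.31. A p that misses the threshold does not show that the responses were equal. Across the 33 genes the responses in the 2 lines had a Pearson r of 0.77 and a Spearman correlation of 0.78, against 0.86 and 0.85 over the other X-linked genes. These lines share no library, but same-numbered libraries deviated together across lines, and ΔB+C was made from FL. Within a line, the response in replicate 1 and that in replicate 2 had a Pearson r of 0.56 in FL, 0.57 in ΔB+C and 0.80 in ΔA. The Spearman correlations were 0.63, 0.70 and 0.66 in the same order. In ΔA the low-count gene *Zfp711* stood apart, at -1.60 and -1.25 in the pairs.

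Without DOX the levels of the 33 genes in the 3 lines were set against each other. Between ΔA and FL edgeR called 0 of 33, with 3 genes at an unadjusted p below 0.05 (*Usp9x*, *Slc6a8* and *Acsl4*, higher in ΔA) and DESeq2 calling 2, while of all genes 5.54% were called lower and 4.3% higher in ΔA, and of X-linked ones 4.31% and 3.02%. Between ΔB+C and ΔA it called 0 of 33, with 4 at an unadjusted p below 0.05 and DESeq2 calling 1, beside 2.87% of all genes lower and 3.81% higher, and 1.29% and 3.23% of X-linked ones. At an unadjusted p below 0.05, 47 of the 431 other X-linked genes were lower and 32 higher in ΔA than in FL. In ΔB+C against ΔA, 34 were lower and 32 higher. Between ΔB+C and FL edgeR and DESeq2 called 0, with 0 at an unadjusted p below 0.05, 0% of all genes lower and 0.0227% higher. Under the block 9 genes differed between ΔA and FL. *Tspan7*, *Zfp711* and *Gpc3* were lower in ΔA (17.2% of all and 16.4% of X-linked genes), with *Gpc3* at -0.48 on the log2 scale. *Huwe1*, *Usp9x*, *Atp7a*, *Bcor*, *Alg13* and *Acsl4* were higher (16.2% and 11.2%), with *Acsl4* at 0.42. *Usp9x*, *Bcor*, *Alg13* and *Acsl4* were lower in ΔB+C than in ΔA under the block (12.8% of all and 9.48% of X-linked genes), and *Tspan7* and *Gpc3* were higher (15.2% and 12.1%). Between ΔB+C and FL the block called 0 (0.379% of all and 0.862% of X-linked genes lower, 0.614% and 0.431% higher).

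**Figure D4:**
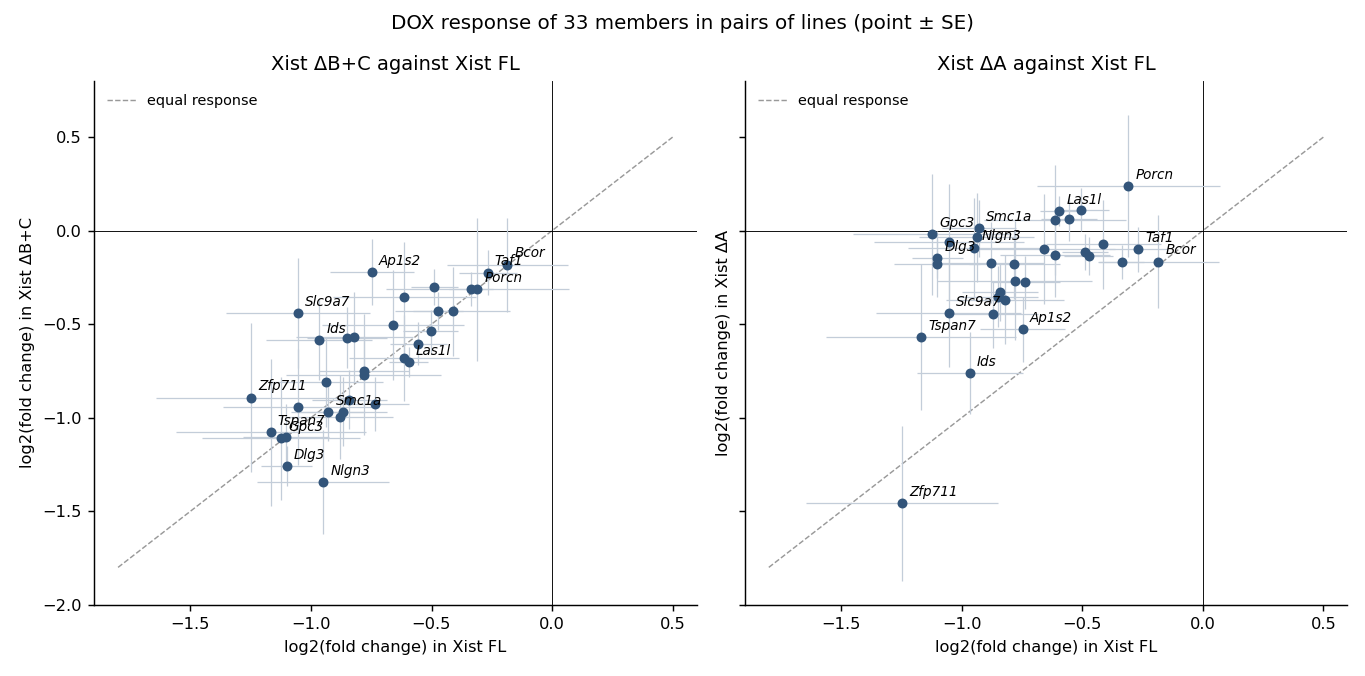
log2(fold change), DOX over noDOX, of the 33 genes (points) with standard errors (bars), in ΔB+C (left, y axis) and ΔA (right, y axis) against FL (x axis), with the dashed line where both responses are equal. On the left the points follow the dashed line (r 0.77), and on the right 32 of 33 lie above it, *Zfp711* being the exception.

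By level without DOX, the group ran from 0.416 CPM per kilobase of exon for *Nlgn3* to 98.7 for *Cul4b*, with *Slc9a7* (0.519), *Zfp711* (0.67), *Pak3* (0.767) and *Iqsec2* (0.858) next at the low end and *Flna* (93.9), *Smc1a* (28.8) and *Alg13* (27.7) at the high end, all means over the 6 noDOX libraries. *Nlgn3*, *Pak3*, *Iqsec2* and *Syp*, 4 of the 7 synapse genes tested, were among the 11 lowest. The 11 genes with the lowest levels (0.416 to 2.9 CPM per kb) responded with a median of -0.87 in FL, -0.77 in ΔB+C and -0.37 in ΔA. The middle 11 (3.03 to 15.1) had -0.61, -0.54 and -0.10, and the highest 11 (16.5 to 98.7) had -0.61, -0.70 and -0.11. Across the 33 genes the Pearson r of log2 level per kb with log2(fold change) was 0.35 in FL, 0.14 in ΔB+C and 0.48 in ΔA, and over the other X-linked genes 0.18, 0.01 and 0.48. Both quantities use the same noDOX counts. In the low, middle and high 11, 1, 2 and 4 genes were called in FL and 3, 2 and 5 in ΔB+C, beside a median standard error of 0.24, 0.24 and 0.14 in FL. Of X-linked genes at any level, 27.2% were called lower in FL and 34.3% in ΔB+C.

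**Figure D5:**
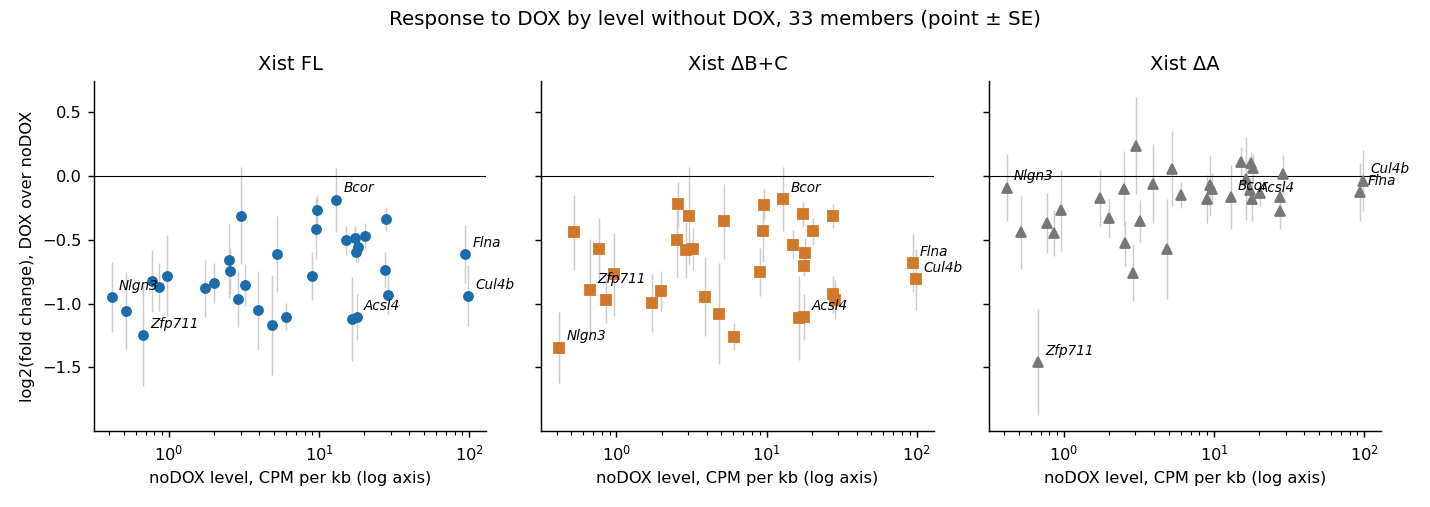
log2(fold change), DOX over noDOX (y axis), of the 33 genes (points) with standard errors (bars) against the mean level without DOX in CPM per kb of exon (x axis, log scale), in each line. Low genes such as *Iqsec2* and high ones such as *Acsl4* both lie well below 0 in FL and ΔB+C, and in ΔA the 11 highest genes lie between -0.28 and 0.11.

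Position on the chromosome was another property that did not enter the choice of the genes. The 33 genes lay between bases 7638471 and 163933666 of the X chromosome (mm10), and across them the distance to *Xist* had an r of 0.08 with log2(fold change) in FL, 0.26 in ΔB+C and 0.14 in ΔA.

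A further 79 X-linked genes linked to intellectual disability were listed for comparison, of which 72 were tested. Their medians were -0.75 in FL, -0.69 in ΔB+C and -0.09 in ΔA, with 21, 30 and 0 of 72 called lower and 0 called higher, and 63, 63 and 0 lower with the block. Of X-linked genes 27.2%, 34.3% and 0% were called lower, and 80.6%, 75.6% and 0.431% with the block. Among those called, *Nhs* was at -1.42 in FL and at -1.64 in ΔB+C, and *Nexmif* was at -1.62 in ΔB+C, each below the lowest of the 33 genes described here in that line. The highest values were those of *Kdm6a*, a histone demethylase known to escape X inactivation, at 0.04, *Syn1* at -0.10 and *Mbtps2* at -0.18 in FL, and *Kdm6a* at 0.18, *Pcdh19* at 0.02 and *Mbtps2* at -0.01 in ΔB+C. The values nearest to 0 among the 33 were those of *Bcor*, at -0.19 and -0.18.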

How the data were processed

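Per the labels and the study's methods, the authors aligned the read pairs to mm10 with TopHat 2.1.0 and the refFlat annotation, counted pairs over exons with featureCounts 1.5.1 (no strand setting given) and deposited raw counts per gene, 1 file per library. File descriptions of noDOX replicate 1 libraries contain the word DOX, and the labels were followed. The study calls the replicates biological duplicates, and the labels give only their numbers.

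Counts of 24627 genes in 12 libraries (31337490 to 41240470 counts each) were tested with edgeR 4.0.16 in R 4.3.3 (quasi-likelihood, robust, 6 group means, TMM from expressed autosomal genes, factors 0.978 to 1.02), for 13191 genes with at least 1 CPM in 6 libraries, with Benjamini-Hochberg adjustment and a threshold of 0.05. Compared were DOX with noDOX within a line, these responses between lines, and the lines without DOX. CPM were scaled with the same factors. A second model had the labels' replicate numbers as a block, since the differences between replicates 2 and 1 correlated between all 15 pairs of groups (r 0.385 to 0.767 over 12721 autosomal genes, 0.718 to 0.767 within a line). DESeq2 1.42.0, limma-voom (limma 3.58.1), other scalings and filters, the compared lines alone and each library left out were alternatives. On simulated counts of 13234 genes, with 200 changed between DOX and noDOX in FL, edgeR found 186 with 11 false calls. With the block it gave the same 186 and 11, whereas in the data the block raised the calls in FL from 7 to 29. The spread and the sizes of change that were simulated are not given here. The share found therefore does not give the power of the test for the genes described here. Positions and exon lengths came from GENCODE vM21 and promoters from RefSeq. Figures used matplotlib 3.10.9.

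The genes and lists were chosen with earlier results of these data known. Every gene is named; values per library are given for those called in FL or ΔB+C (the 8 with the smallest p) or in a difference between lines, the 3 nearest 0 in each, the 2 lowest in ΔA, and the lowest and highest mean in each function, and of the longer list for the 3 largest called falls and the 3 nearest to or above 0, of which some are not reported here.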

Additional observations from a re-analysis of the deposited data

Results flagged for a closer look

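The response to DOX differed between ΔB+C and ΔA by a test of the difference itself (edgeR) for 2 of the 33 genes. For *Dlg3* the difference in log2(fold change) was -1.11, from -1.26 in ΔB+C and -0.15 in ΔA, lower in both replicate pairs. For *Las1l* it was -0.81, from -0.70 and 0.11, also lower in both pairs. Neither call remained when any 1 of the 12 libraries was left out (adjusted p up to 0.186 for *Dlg3* and 0.234 for *Las1l*), and both held with the replicate block (adjusted p = 0.00046 and 0.0013). With 2 libraries in a group, no sample could be tested as standing apart from its group.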

How the results depend on the processing

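With the replicate block 29 genes were lower in FL, 26 in ΔB+C, 12 differed in ΔB+C minus ΔA, 9 in FL minus ΔA, and without DOX 9 differed between ΔA and FL and 6 between ΔB+C and ΔA; the block ended no call. DESeq2 called 20, 18, 6, 4, 2 and 1 in the same order. The shares of all genes and of X-linked genes that DESeq2 called are not given here. Its counts therefore cannot be set against X-linked genes in general. Library totals gave 4 in FL, 0 for ΔB+C minus ΔA and a median of -0.19 in ΔA, where *Smc1a* turned to -0.029. With the compared lines alone, which leaves fewer degrees of freedom, 0 were called in FL, ΔB+C or their difference from ΔA. By the order of the libraries, an alternative chosen after seeing the data, 30, 28 and 15 of 33 were lower in FL, ΔB+C and ΔA. Leaving out 1 library gave 0 to 9 calls in FL, 2 to 9 in ΔB+C and 0 to 0 for the difference of ΔB+C and ΔA, and medians of -0.895 to -0.66, -0.86 to -0.50 and -0.21 to -0.13 in FL, ΔB+C and ΔA. It turned the sign of *Bcor* in FL (-0.40 to 0.079), ΔB+C (-0.41 to 0.096) and ΔA (-0.39 to 0.034), of *Porcn* (-0.62 to 0.085, -0.58 to 0.017 and -0.18 to 0.82), and in ΔA of *Cask* (-0.29 to 0.14), *Nlgn3* (-0.29 to 0.13), *Cul4b* (-0.15 to 0.073), *Slc6a8* (-0.28 to 0.11), *Rab39b* (-0.50 to 0.095), *Wdr45* (-0.028 to 0.14), *Smc1a* (-0.061 to 0.090), *Ssr4* (-0.071 to 0.18), *Gpc3* (-0.21 to 0.20), *Zdhhc9* (-0.23 to 0.043) and *Acsl4* (-0.39 to 0.0041), none of which was called there. Replicate 1 alone gave a median of -0.13 in ΔA and turned *Porcn* in FL to 0.065 and *Cask* and *Rab39b* in ΔA to 0.068 and 0.061, and replicate 2 alone turned *Gpc3* to 0.013 and *Ssr4* to -0.015 in ΔA. The cause of these changes was not tested. Genes near 2 CPM rest on few counts.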
